A study of Arabidopsis thaliana with 22 samples.

Results

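The comparison set *baf1* seedlings against wild-type (WT) seedlings, both grown with the brassinosteroid (BR) synthesis inhibitor brassinazole (BRZ). It used the 4 *baf1* and 3 WT libraries of that treatment, 7 of 22 libraries in all. Of 32833 genes in the table, 16379 averaged at least 10 normalized reads over these 7 libraries and were tested. All libraries were QuantSeq libraries, which read the 3′ ends of polyadenylated transcripts, from whole 7-day-old Col-0 seedlings. The *baf1* seedlings came from 1 line with a T-DNA insertion in *BAF1*, and BRZ was supplied in the medium at 250 nM. The remaining libraries were 3 of *bes1-D* with BRZ, and 4 of *baf1*, 4 of *bes1-D* and 4 of WT on medium without BRZ, which the labels give as untreated and the treatment text as DMSO. The *bes1-D* line carries a gain-of-function allele of *BES1*. The labels do not say whether replicates came from separate sowings, so the P-values measure the spread between libraries, part of which may be technical.

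BRs are plant steroid hormones that promote cell elongation. Their perception at the cell surface by BRI1 and BAK1 ends in the accumulation of the transcription factors BES1 and BZR1, which induce growth genes and repress BR biosynthesis genes. BAF1 is an F-box protein, the substrate-binding part of a ubiquitin ligase, studied here as a factor that marks BES1 for degradation. The comparison asks which transcripts differ between the *baf1* line and WT when BR levels are kept low. Whether a difference came from the loss of BAF1 or from another difference between the lines was not tested.

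The insertion and the transcript readout can be placed on the gene through the primers of the study. The first pair bounds the coding sequence, with the start codon and the complement of the stop codon in capitals. The second pair was designed for genotyping the insertion and the third for measuring the transcript.
BAF1-F: ATGgaatcgtctccggtaaactg
BAF1-R: TCAtggcatcaatgtaagcttagcat
baf1-LP: caacgaatatccgaccgtacatc
baf1-RP: atctctaacggcattctacctgct
qBAF1-F: gatcggtggattgaaatcgacg
qBAF1-R: gcttccccatccttttagcag
Each of these 6 primers matched the RefSeq assembly TAIR10.1 at 1 place, inside *BAF1* (AT1G76920) on the plus strand of chromosome 1. The coding sequence, a single uninterrupted exon in the annotation, ran from 28892295 to 28893419, or 1125 bases. The genotyping pair spanned 28892524 to 28893220 and the transcript pair 28893104 to 28893306, all within the coding sequence. QuantSeq reads come from the end of the transcript, downstream of both pairs. A low value therefore counts few polyadenylated transcripts that reach that end, and does not measure the stretch before the insertion.

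The estimated depth was 2740000 to 4400000 reads in the *baf1* libraries and 2080000 to 4710000 in the WT libraries, and the authors' values are all at a common size of about 3640000. Transcripts of photosystem and Rubisco genes summed to 225388 to 236635 normalized reads in *baf1* and 224546 to 234582 in WT. Root markers summed to 798 to 910 in *baf1* and 807 to 984 in WT, so both leaf and root transcripts were present. *baf1* replicate 4 stood apart. Its correlations with the other 6 libraries across genes were 0.941 to 0.959, against 0.959 to 0.977 for all pairs without it. Seed storage transcripts also varied between libraries. The 12 seed storage markers, a list written after high values had been seen, summed to 139, 780, 166 and 1752 normalized reads in the 4 *baf1* libraries, against 24.3, 291 and 69.8 in WT. The groups overlapped in this sum, and *baf1* replicates 2 and 4 lay above all others. Their part in the results was not tested, and some results are given below without these 2 libraries. The number of called genes defined below was 1253 without them, against 918 with them. WT replicate 2 was kept in that setting, although its sum of 291 lay above those of *baf1* replicates 1 and 3.

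*BAF1* was nearly absent in the mutant. It had 3.42, 2.47, 0.0627 and 13.5 normalized reads in *baf1*, against 265, 317 and 218 in WT. The *baf1* mean was 1.83% of the WT mean, with a log2 fold change of −6.08 (SE 0.57, limma adjusted p = 5.26e-05). No libraries overlapped, which gave the smallest p that 4 against 3 libraries allow (two-sided exact permutation test, p = 0.0286). Of the 10 genes on each side of *BAF1*, 11 were tested and 0 were called, with log2 fold changes from −0.55 to 0.86. *BES1* itself had 493, 439, 447 and 364 normalized reads in *baf1*, against 548, 497 and 515 in WT. The groups did not overlap, but the difference was small (log2 fold change −0.26, SE 0.12, unadjusted P = 0.0472, limma adjusted p = 0.889). *BES1* was not called once the 2 libraries high in seed transcripts were left out.

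Over all genes, 918 of 16379 (5.6%) had an unadjusted P under 0.05 and a fold change above 1.1, 502 of them higher (3.06%) and 416 lower (2.54%) in *baf1*. These are called genes below. A P under 0.05 takes 819 of 16379 genes where none differs, so membership among the 918 says little of any single gene. After Benjamini-Hochberg adjustment 8 genes remained (0.0488%), 3 higher (0.0183%) and 5 lower (0.0305%). The *baf1* and WT libraries did not overlap for 1095 genes (6.69%), 566 higher (3.46%) and 529 lower (3.23%), among them 555 of the called genes.

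Besides *BAF1*, the adjusted genes fell into 3 patterns, shown in the plot of adjusted genes by library. In the first, *baf1* and *bes1-D* were both far from WT, with and without BRZ. *MRD1* (AT1G53480), named as a transcript that falls in a methionine-overaccumulating mutant, had 535, 631, 572 and 724 normalized reads in *baf1*, against 15.1, 31.7 and 13.98 in WT. This was a log2 fold change of 4.94 (SE 0.22, limma adjusted p = 3.38e-09), and the lowest *baf1* library was far above the highest WT library. In *bes1-D* under BRZ *MRD1* stood at 465 to 733, and without BRZ at 558 to 671 in *baf1*, 519 to 568 in *bes1-D* and 14.5 to 35.8 in WT.

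*QQS* (AT3G30720), a gene found only in Arabidopsis that acts on starch content, went the other way. It had 8.63, 8.41, 4.31 and 3.83 normalized reads in *baf1*, against 199, 202 and 131 in WT (log2 fold change −4.66, SE 0.30, limma adjusted p = 4.79e-07). No libraries overlapped, and *QQS* in *bes1-D* under BRZ was as low, at 6.04 to 8.49. Without BRZ it was 10.9 to 14.95 in *baf1*, 11.5 to 14.4 in *bes1-D* and 143 to 214 in WT. The reverse primer of the study for this gene, printed to show that its assay ends at the stop codon (complement in capitals), lies in the coding sequence on chromosome 3, at 12349703 to 12349726 of TAIR10.1.
qAT3G30720-R: TCAgtagttgtagaactgaagccc

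The noncoding RNA AT2G04885 was at 0.422, 0, 0 and 2.08 normalized reads in *baf1*, against 86.6, 70.3 and 70.9 in WT. All *baf1* libraries lay under a floor of 3 normalized reads per library, so the transcript was at least 25.3-fold lower than in WT (limma adjusted p = 2.32e-05). *bes1-D* was also below that floor under BRZ, with 0.416 to 1.72. AT3G05170, a phosphoglycerate mutase family protein, had 73.1, 39.6, 42.4 and 67.6 normalized reads in *baf1*, against 2.895, 6.185 and 6.09 in WT (log2 fold change 3.23, SE 0.33, limma adjusted p = 0.00012). *bes1-D* under BRZ had 61.3 to 71.8, within the range of *baf1*. AT3G05170 and *QQS* were among the genes that the study chose for RT-qPCR from its libraries without BRZ. Their direction in *baf1* and *bes1-D* without BRZ is therefore not independent evidence.

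In the second pattern *baf1* alone was low. *CRK1* (AT2G41140), a kinase related to calcium-dependent protein kinases, had 105, 118, 82.5 and 122 normalized reads in *baf1*, against 301, 362 and 261 in WT (log2 fold change −1.52, SE 0.16, limma adjusted p = 0.000204). *bes1-D* under BRZ had 304 to 530. AT1G54220, a dihydrolipoamide acetyltransferase, which is a subunit of the pyruvate dehydrogenase complex, had 13.6, 5.81, 6.715 and 12.0 normalized reads in *baf1*, against 59.6, 68.4 and 60.3 in WT (log2 fold change −2.67, SE 0.31, limma adjusted p = 0.00056). *bes1-D* under BRZ had 90.4 to 117, above WT. Both genes were as low in *baf1* without BRZ, at 95.0 to 124 for *CRK1* and 9.75 to 20.3 for AT1G54220.

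The third pattern had 1 gene. *KIN1* (AT5G15960), a small protein induced by cold and abscisic acid, had 153, 108, 130 and 154 normalized reads in *baf1*, against 64.7, 65.1 and 64.7 in WT (log2 fold change 1.04, SE 0.16, limma adjusted p = 0.0185). The libraries did not overlap. Without BRZ *KIN1* did overlap, with 34.6 to 73.9 in *baf1* and 38.3 to 72.5 in WT, and the interaction was 0.98 on the log2 scale (limma adjusted p over 0.05). *KIN1* has a tandem copy, *KIN2*, and reads may be shared between them. Its adjusted p by limma was above 0.05 when any 1 WT library, or *baf1* replicate 1 or 3, was left out (0.0905 to 0.130). It was 0.211 in the fit to all 22 libraries and 0.311 with no filter on low values.

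**Figure D1:**
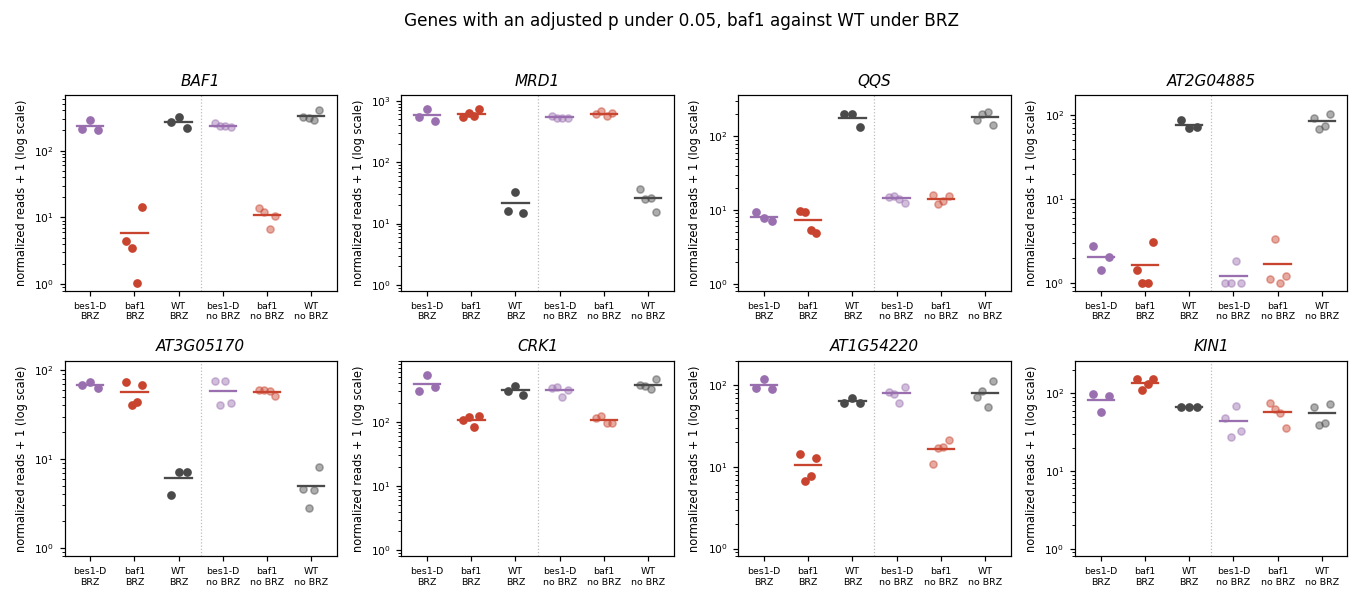
Normalized reads + 1 (log scale) of the 8 genes with an adjusted p under 0.05, by group; points are libraries, bars are group means, full colour is with BRZ and pale colour without. *MRD1* and AT3G05170 are high, and *QQS* and AT2G04885 low, in both *baf1* and *bes1-D*, whereas *BAF1*, *CRK1* and AT1G54220 are lower in every *baf1* library than in every *bes1-D* and WT library.

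The libraries without BRZ gave the same contrast in 8 libraries that the comparison under BRZ did not use. Of the 8 adjusted genes, 8 had the same direction there and 7, all but *KIN1*, passed the adjusted threshold there as well, where 21 of 16235 genes did (0.129%). For the 891 called genes tested in both settings, 590 (66.2%) had the same direction without BRZ, against 54.3% of all 15953 genes tested in both. Of the 891, 183 (20.5%) were called without BRZ, 166 in the same and 17 in the opposite direction, beside 10.3% of all genes. Genes lower in *baf1* under BRZ were called without BRZ in 112 of 408 cases (27.5%), and genes higher in 71 of 483 (14.7%). Across genes the log2 fold changes correlated with r = 0.216 (n = 15953 genes, which are not independent replicates).

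**Figure D2:**
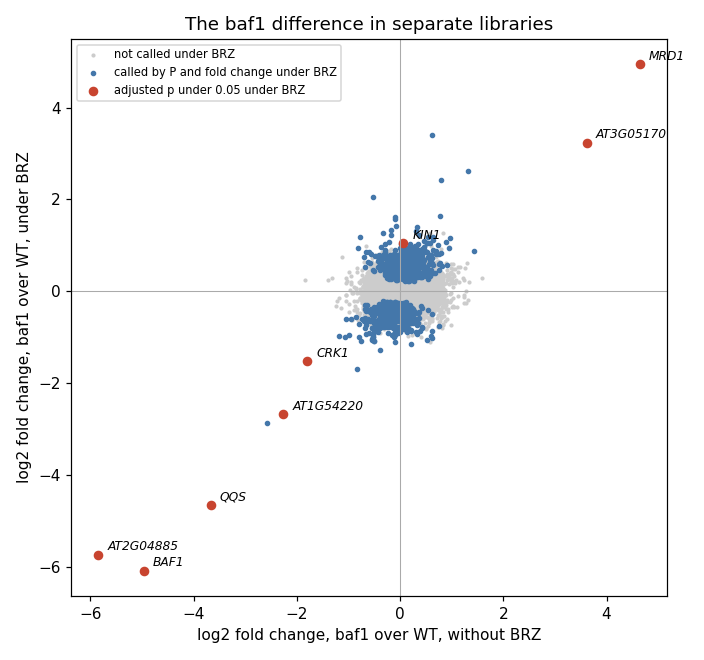
log2 fold change of *baf1* over WT under BRZ (vertical) and without BRZ (horizontal), 1 point per gene. 7 of the 8 adjusted genes lie near the diagonal and *KIN1* near the vertical axis, while most called genes stay within a log2 change of 1 in both.

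The interaction of genotype with BRZ tested whether the *baf1* difference itself changed with treatment. By limma, 0 of 16315 genes passed the adjusted threshold, with a smallest adjusted p of 0.795, and 944 (5.79%) had an unadjusted P under 0.05. The gene with the smallest P was *WRKY20*, a transcription factor, at 31.8, 28.7, 34.9 and 32.1 normalized reads in *baf1*, against 65.4, 50.4 and 62.5 in WT under BRZ. Without BRZ it was 40.8 to 54.3 in *baf1* and 29.7 to 44.97 in WT (interaction −1.18 on the log2 scale, limma adjusted p = 0.795). The others were the thionin gene AT1G66100 (0.63), AT4G38060 (0.74) and *BAT1*, an acyltransferase that inactivates BRs (0.63). None of the 4 can be said to depend on BRZ at the adjusted threshold.

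Below the adjusted threshold, 13 genes had an adjusted p between 0.05 and 0.2, of which 11 were lower and 2 higher in *baf1*. Those not covered by the rule for named genes were chosen after their values were seen. *HB-2* (AT4G16780), a homeodomain transcription factor of shade avoidance, had 72.4, 83.8, 79.3 and 45.8 normalized reads in *baf1*, against 149, 131 and 156 in WT (log2 fold change −1.07, SE 0.20, adjusted p = 0.0699). *SEN1* (AT4G35770), a gene known to be induced by darkness and senescence, had 1176, 1085, 1134 and 1115 in *baf1*, against 2028, 1877 and 1435 in WT (log2 fold change −0.64, SE 0.12, adjusted p = 0.0699). In both genes every *baf1* library lay below every WT library.

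*XTH15* (AT4G14130), a cell wall xyloglucan endotransglucosylase, had 184, 210, 182 and 196 normalized reads in *baf1*, against 279, 313 and 321 in WT (log2 fold change −0.65, adjusted p = 0.0828). *STP1*, a sugar transporter, had 2240, 2557, 2113 and 2197, against 3272, 3106 and 3290 (log2 fold change −0.50, adjusted p = 0.127). *MGL*, the methionine-degrading enzyme methionine gamma-lyase, had 106, 113, 114 and 116, against 178, 179 and 174 (log2 fold change −0.65, adjusted p = 0.134). The groups were apart in each of these genes. *ASN1*, an asparagine synthetase, had 659, 717, 808 and 632 in *baf1*, against 1012, 937 and 1233 in WT (log2 fold change −0.59, adjusted p = 0.167). *EBP*, an ethylene response factor, had 2819, 1918, 2087 and 1672, against 4765, 3263 and 3093 (log2 fold change −0.80, adjusted p = 0.167). The remaining lower genes were *AATP1* (−2.85), *STH* (−1.11), AT4G35720 (−1.08) and AT5G62280 (−0.65), with no overlap between groups in any of them.

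Some of these genes overlapped between *baf1* and WT when no BRZ was given, but no gene passed the adjusted threshold for the interaction. Others changed alike in both settings: *AATP1* and AT5G62280 had log2 fold changes of −2.85 and −0.65 under BRZ and −2.59 and −0.61 without. *SEN1* had 1092 to 1267 normalized reads in *baf1* and 1103 to 1476 in WT without BRZ, and *XTH15* 88.8 to 139 in *baf1* and 92.0 to 111 in WT. *ASN1* had 724 to 1039 in *baf1* and 872 to 990 in WT. *bes1-D* under BRZ was below *baf1* in these 3 genes, at 563.5 to 703 for *SEN1*, 51.8 to 61.7 for *XTH15* and 207 to 279 for *ASN1*. Comparisons of *bes1-D* and of *baf1* under BRZ share the WT libraries, so the values are given side by side without a test.

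The 2 genes that were higher were *WRKY70* and AT1G66100. *WRKY70* (AT3G56400), a transcription factor between salicylic acid and jasmonate signalling, had 59.1, 69.15, 47.4 and 65.5 normalized reads in *baf1*, against 33.6, 17.8 and 18.1 in WT (log2 fold change 1.39, SE 0.25, adjusted p = 0.0655). AT1G66100, an antimicrobial thionin, had 302, 331, 330 and 350 in *baf1*, against 223, 189 and 197 in WT (log2 fold change 0.69, SE 0.12, adjusted p = 0.058). Neither gene overlapped between groups. AT1G66100 was 739 to 925 in *bes1-D* under BRZ, and without BRZ 582 to 740 in *baf1* and 589 to 660 in WT.

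**Figure D3:**
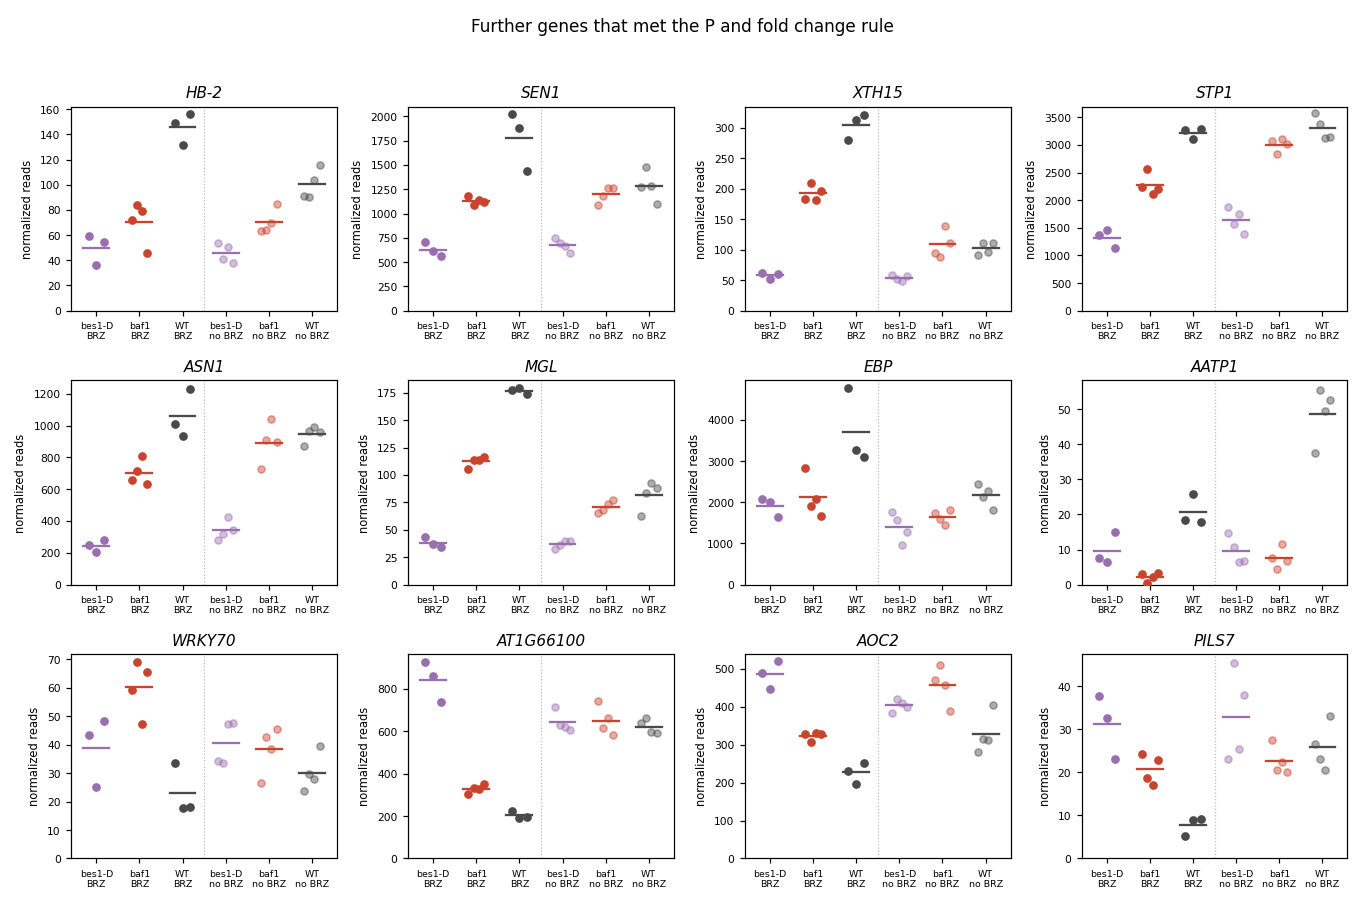
Normalized reads of 12 further called genes by group; points are libraries, bars are group means, full colour is with BRZ and pale colour without. In *HB-2*, *SEN1*, *XTH15*, *STP1*, *ASN1* and *MGL* the mean of *baf1* under BRZ lies between those of *bes1-D* and WT, and in *HB-2* the *baf1* and *bes1-D* libraries overlap.

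The largest falls among called genes without overlap, past the adjusted ones, were *AATP1*, the noncoding RNA AT4G04223, *BCAT-2*, a branched-chain amino acid transaminase, *STH* and AT4G35720, with log2 fold changes from −2.85 to −1.08. *BCAT-2* had 31.2, 18.7, 25.7 and 16.6 normalized reads in *baf1*, against 58.1, 41.3 and 53.1 in WT. The largest rises were the seed storage gene *CRB* (3.39), AT5G49770 (1.64), *TSK* (1.63), AT2G17975 (1.61), *WRKY70* (1.39), *PILS7* (1.33) and the small nucleolar RNA AT1G05907 (1.304). *PAP85*, a storage protein of the cupin family also among the 10 largest rises, had 2.47, 23.5, 5.15 and 47.5 in *baf1*, against 0.566, 1.71 and 2.03 in WT. All WT values lay under the floor of 3 normalized reads per library, so the *baf1* mean was at least 6.55-fold higher, and the gene reached the mean of 10 only through *baf1* replicates 2 and 4. Its *baf1* values varied with the seed storage sum of the libraries, and were highest in replicates 2 and 4. AT5G49770, *TSK*, AT2G17975 and *PILS7* had fewer than 25 normalized reads in each *baf1* library.

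A set of genes defined in other libraries was used to set the comparison beside *bes1-D*. Both comparisons had WT as the reference, so a trait of the WT line would shift *baf1* and *bes1-D* alike, which was not tested. In *bes1-D* without BRZ, 665 genes were higher (4.09%) and 559 lower (3.44%) than in WT at the adjusted threshold, and neither group of libraries enters the comparison under BRZ. Of these, 648 and 558 were also tested under BRZ. With median-of-ratios size factors these sets held 379 and 718 genes. The genes lower in *bes1-D* had a median log2 fold change of −0.10 in *baf1* under BRZ, 70.8% of them were negative, and 93 (16.7%) were called lower, beside 2.54% of all genes. In the opposite direction, 23 (4.12%) were called higher, beside 3.06%. The genes higher in *bes1-D* had a median of 0.07, 64.7% were positive, and 36 (5.56%) were called higher, beside 3.06%, while 11 (1.698%) were called lower, beside 2.54%. Over the 15948 genes tested in both comparisons the median was 0.01 and 51.7% were positive.

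For the lower set, the median difference from the WT mean was −0.11, −0.09, −0.13 and −0.10 in the 4 *baf1* libraries. For the higher set it was 0.14, 0.06, 0.14 and −0.01, so replicate 4 did not show the shift of the higher set. With each library left out in turn, the share of the lower set called lower ran from 11.5% to 18.6%, beside 1.89% to 3.20% of all genes tested in both. The share of the higher set called higher ran from 3.40% to 10.6%, beside 1.96% to 4.04% of all genes tested in both. The 3.40% stood beside 2.08% without *baf1* replicate 1 and 1.96% without replicate 3, and the 10.6% beside 4.04% without replicate 4. The lower set held 10 of the 13 genes with an adjusted p between 0.05 and 0.2, among them *HB-2*, *SEN1*, *XTH15* and *STP1*. Of the 8 adjusted genes, 5 were in 1 of the 2 sets, *BAF1*, AT2G04885 and *QQS* in the lower and *MRD1* and AT3G05170 in the higher. Of all 15948 genes tested in both comparisons, 558 were in the lower and 648 in the higher set. *BAF1*, also among the 93 called lower, carries the insertion, so its fall in *baf1* says nothing of *bes1-D*, where its log2 fold change was −0.46.

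**Figure D4:**
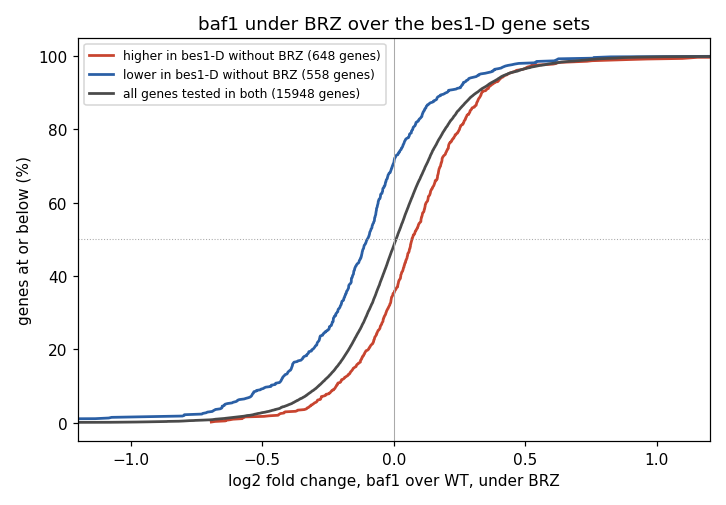
Cumulative share of genes (%) by log2 fold change of *baf1* over WT under BRZ, for genes higher or lower in *bes1-D* without BRZ and for all genes tested in both. The curve of the 558 lower genes lies left of that of all genes (median −0.10 against 0.01) and that of the 648 higher genes right of it (median 0.07).

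The gene lists were then read by their role in the BR pathway, each beside the 3.06% of all genes called higher and 2.54% called lower. Of 12 tested genes of BR biosynthesis and inactivation, 2 were called higher and 0 lower. *BR6OX2*, which makes brassinolide, had 323, 178, 345 and 295 normalized reads in *baf1*, against 202.5, 149 and 227 in WT (log2 fold change 0.54, SE 0.20, limma adjusted p = 0.818). *CYP90D1*, an upstream hydroxylase, had 34.0, 36.1, 36.3 and 48.4, against 15.9, 24.8 and 37.4 (0.62, SE 0.28, limma adjusted p = 0.889). Both overlapped between groups, and like every call named by list below, except *BAF1* and *KIN1*, neither passed the adjusted threshold. In *bes1-D* without BRZ, libraries that this comparison does not use, *BR6OX2* stood at 16.1 to 38.7 and *CYP90D1* at 4.31 to 7.78, below WT at 61.1 to 79.4 and 15.7 to 19.8.

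Among 13 genes of BR perception and signalling 0 were called, with log2 fold changes from −0.20 to 0.48 and a median of 0.071. Without the 2 libraries high in seed transcripts 1 of the 13 was called higher and the median was −0.031. *BRI1*, the receptor, had 325.5, 277, 285 and 252 normalized reads in *baf1*, against 319, 343 and 306 in WT, and the groups overlapped. Of the 6 members of the BES1 and BZR1 family only *BES1* was called, and *BEH1* (−0.09), *BEH2* (0.06) and *BEH3* (−0.18) were not. Of 12 genes known or proposed to act in BES1 degradation only *BAF1* was called. *DSK2B*, an autophagy receptor for BES1, had a log2 fold change of −0.22, *MAX2*, the F-box protein of strigolactone signalling, −0.16, and *ATG5*, an autophagy protein, −0.57, all with P above 0.05. In the ATG8 family of autophagosome proteins 1 of 9 genes was called, *ATG8D*, with 137, 111, 131 and 156 in *baf1*, against 167, 188 and 173 in WT (−0.40, limma adjusted p = 0.81).

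Lists of growth genes held more lower than higher calls. Of 9 bHLH factors of BR growth, 2 were called lower, *PRE6* (−0.56) and *BEE1* (−0.70), and the list median was −0.17 beside 0.01 for all genes tested. Without the 2 libraries high in seed transcripts the median was −0.024. *BEE1* had 35.1, 47.2, 22.8 and 14.4 normalized reads in *baf1*, against 47.3, 49.5 and 38.6 in WT. Of 10 expansins, which loosen cell walls, *EXPA8* (−0.43) and *EXPA11* (−0.64) were called lower. *EXPA11* had 104, 86.2, 99.4 and 100 in *baf1*, against 184, 154 and 124 in WT, with no overlap, although it was higher than WT in *bes1-D*, at 332 to 366 under BRZ. Its direction in *baf1* was the same without BRZ, with 137 to 161 in *baf1* and 219 to 228 in WT.

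Of 14 XTH cell wall enzymes, *XTH15*, *XTH19* (−0.41) and *XTH24* (−0.71) were called lower and *XTH9* (0.42) higher, and 12 of the 14 were negative. The list median was −0.30, and −0.15 without the 2 libraries high in seed transcripts. *XTH9* had 499.6, 470.5, 569 and 469 normalized reads in *baf1*, against 344, 360 and 422.5 in WT, and without BRZ 546 to 716 in *baf1* and 353 to 486 in WT. Of 17 PIP and TIP aquaporins, the water channels of plasma membrane and tonoplast, 4 were called lower and 1, *PIP2;7* (0.30), higher. *TIP2;3* had 1256, 1211, 1185 and 1195 in *baf1*, against 1499, 1908 and 1403 in WT (−0.39, limma adjusted p = 0.575). The other 3, *PIP1;5* (−0.33), *PIP2;6* (−0.28) and *TIP1;2* (−0.32), fell by similar amounts, and *PIP1;5* and *PIP2;6* did not overlap between groups. The aquaporin sum was 55728, 56304, 56249 and 46453 in *baf1*, against 65883, 59638 and 59779 in WT, so each *baf1* library was below each WT library. Without the 2 libraries high in seed transcripts 1 expansin was called lower and 1 higher, 2 XTH enzymes lower and 1 higher, and 2 aquaporins lower and 2 higher. The part of seed transcripts in these counts was not tested.

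Of 17 auxin response genes, *GH3.3* (−0.82), *IAA7* (−0.24) and *IAA17* (−0.30) were called lower and *PILS7* (1.33) higher. *GH3.3*, which conjugates auxin to amino acids, had 66.5, 67.1, 48.9 and 34.1 normalized reads in *baf1*, against 89.0, 85.2 and 106 in WT. Of 15 jasmonate genes, 4 were called higher and 0 lower, and the 4, *LOX2*, *LOX4*, *AOS* and *AOC2*, all encode enzymes of jasmonate synthesis. The other synthesis genes of the list, *LOX3* (0.54), *AOC3* (0.15), *OPR3* (−0.07) and *AOC1* (−0.21), were not called. The remaining members, *MYC2* and the JAZ and VSP genes, lay from −0.14 to 0.17. *LOX2* had 283, 282, 268 and 322 in *baf1*, against 211, 207 and 209 in WT (0.46, SE 0.12, limma adjusted p = 0.433). *AOC2* had 329, 308, 332 and 328, against 230, 198 and 253 (0.52, SE 0.12, limma adjusted p = 0.325). *LOX4* (0.91) and *AOS* (0.26) were likewise without overlap, and the list median was 0.10. *LOX4* had 9.71 normalized reads in *baf1* replicate 3, 16.6 to 17.1 in the other *baf1* libraries, and less than 9.71 in every WT library. It therefore passed the filter of 10 only through *baf1*, and its call carries little weight. Without the 2 libraries high in seed transcripts 3 of 14 were called, and of the auxin genes 1 was called in each direction. Without BRZ, *LOX2* was 343 to 369 in *baf1* and 196 to 255.5 in WT, a difference that passed the adjusted threshold there (limma adjusted p = 0.00325). In *bes1-D* under BRZ, *LOX2* was 59.3 to 111, below WT.

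Of 12 drought and cold genes 3 were called higher and 0 lower, *KIN1*, *KIN2* and *COR15B*. *KIN2* had 3857, 4098, 4462 and 4572 normalized reads in *baf1*, against 2902, 3206 and 3384 in WT (0.42, SE 0.10, limma adjusted p = 0.342). *COR15B*, a chloroplast protein of freezing tolerance, had 109, 152, 126 and 302, against 82.8, 129 and 102, and its highest value came from replicate 4. *COR15B* had a log2 fold change of 0.62, and of 0.18 without the 2 libraries high in seed transcripts. Of 6 flavonoid genes, all positive, *CHS* (0.41) and *FLS1* (0.52) were called higher. *FLS1*, flavonol synthase, had 256, 261, 303 and 295 in *baf1*, against 137, 223 and 239 in WT.

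The remaining lists gave few calls. *MYB34*, a regulator of indole glucosinolates, was the only 1 of 18 glucosinolate genes called (0.74), *LHY* the only 1 of 12 clock genes (−0.35), and *IRT1*, the iron transporter, the only 1 of 11 iron genes (0.62). *EXPA7*, a root hair expansin, was called lower among 11 root markers (−0.67). Of 17 photosystem and Rubisco genes 0 were called, within −0.12 to 0.23, but 4 were called higher and 3 lower without the 2 libraries high in seed transcripts. Of 11 tested seed storage genes, 8 were called higher and 0 lower, with a median of 2.42. These included *SESA3*, a seed albumin, at 28.2, 141, 25.3 and 313 normalized reads in *baf1*, against 0.852, 44.8 and 3.44 in WT. Without the 2 libraries high in seed transcripts, 6 were tested, 1 was called and the median was 1.00. In that setting the iron genes had 1 call in each direction and the root markers 2 lower calls.

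**Figure D5:**
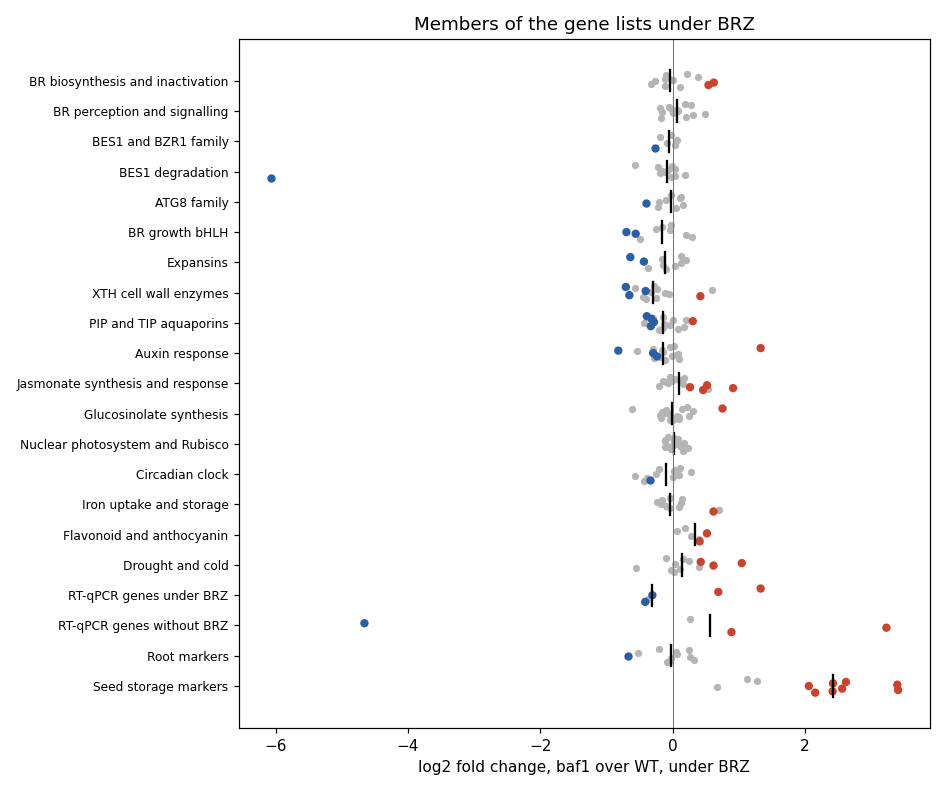
log2 fold change of *baf1* over WT under BRZ for each tested member of the gene lists; red and blue points are called higher and lower, grey points are not called, and black bars are list medians. Apart from *BAF1*, *QQS*, AT3G05170 and the seed storage genes (median 2.42), nearly all members lie within a log2 change of 1. Some seed storage genes passed the filter only through 2 *baf1* libraries, and the median without those was 1.00.

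The genes that the study followed by RT-qPCR under BRZ were chosen from these libraries, so their calls here are not independent evidence. *PILS7* (AT5G65980), a PIN-like auxin carrier, had 24.2, 18.6, 17.1 and 23.0 normalized reads in *baf1*, against 5.325, 8.82 and 9.11 in WT (log2 fold change 1.33, SE 0.34, limma adjusted p = 0.359). Without BRZ *PILS7* overlapped, with 20.1 to 27.5 in *baf1* and 20.5 to 33.1 in WT. AT3G55240 had 220, 251, 204 and 197 in *baf1*, against 318, 302 and 254 in WT (−0.41, limma adjusted p = 0.731), with no overlap. AT5G01740, a nuclear transport factor family protein, was called (−0.31, limma adjusted p = 0.889) although its groups overlapped, at 654 to 857 in *baf1* and 801 to 1182 in WT. AT1G66100, described above, was also on this list, and AT5G05250 was not called, with 68.3 to 93.4 in *baf1* and 76.1 to 128 in WT. AT1G79640 was below the filter, at 2.25, 3.90, 10.1 and 22.0 in *baf1* and 2.72, 0.528 and 4.22 in WT, and was not tested.

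Of the RT-qPCR genes chosen without BRZ, *CYP21-2*, a cyclophilin, had 26.9, 41.9, 24.0 and 25.3 normalized reads in *baf1*, against 13.3, 12.9 and 19.96 in WT (log2 fold change 0.89, SE 0.29, limma adjusted p = 0.731). *CASP5*, a protein of the root Casparian strip, had 15.4, 17.8, 14.3 and 17.8 under BRZ in *baf1*, against 13.3, 7.79 and 23.1 in WT. The groups overlapped, whereas without BRZ *CASP5* stood at 3.52 to 11.7 in *baf1* and 15.4 to 19.8 in WT. Without the 2 libraries high in seed transcripts, 1 gene of this list was called higher instead of 2. The interaction for *CASP5* was 1.65 on the log2 scale, and did not pass the adjusted threshold.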

How the data were processed

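RNA of whole 7-day-old seedlings was sequenced as QuantSeq 3′ libraries of single-end reads. The authors trimmed and mapped the reads with the forward QuantSeq pipeline of Lexogen on BlueBee, using TAIR10. The submitters' processing notes name STAR, HTSeq and edgeR without versions. The deposited signal is 1 table of normalized reads per gene and library, named for TMM and adjusted by the authors to a common library size, so values are not whole and no count model was fitted. Of its per-sample columns, 0 were left out. The authors' test, PoissonSeq, was not used.

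The depth behind the adjusted values was estimated from 300 genes with means of 2 to 8 as the relative size that best turned each library's values back into whole reads, for a negative binomial quantile map of dispersion 0.05. Reads carry no molecular identifiers, so depth bears on counting error only. Genes with a mean of at least 10 over the 7 libraries were fitted with limma 3.58.1 in R 4.3.3 (lmFit, eBayes with trend) on log2(value + 1), a scale that understates the change of low genes. Genes were called at an unadjusted P under 0.05 with a fold change above 1.1, the criterion of the study, and at a Benjamini-Hochberg adjusted p under 0.05 over all genes tested. The *baf1* and WT libraries without BRZ, and those of *bes1-D* and WT without BRZ, were fitted likewise, and the interaction over 4 groups. *BAF1* was also compared with a two-sided exact permutation test over all 35 arrangements of its 7 libraries. The scripts were tested on simulated data.

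The members, the 21 gene lists and the tests were chosen with earlier results of these data known. Named genes were those with an adjusted p under 0.05, the 10 largest rises and 10 largest falls among called genes without overlap, *BAF1*, *BES1* and the RT-qPCR genes, the called members of each list or its smallest P up to 4 members, the 4 smallest interaction P, and, as a group, 10 genes on each side of *BAF1*. Further genes were chosen after their values were seen and are marked so. Symbols came from RefSeq TAIR10.1, which matched 32548 of 32833 identifiers. Primers were read from the study's primer list and matched to that assembly. Plots were drawn with matplotlib 3.10.9. Alternatives covered the pseudocount, the filter, size factors, all 22 libraries in 1 fit, the replicate number as a block, no trend, a fold change above 1.5, each library left out and, chosen after seeing the data, both *baf1* libraries with the highest seed storage sums left out.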

Additional observations from a re-analysis of the deposited data

Results flagged for a closer look

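Each of the 135 values of the 4 *baf1* libraries under BRZ, 114 of named genes and 21 list sums, was examined for 1 library far from the other 3, and 11 were set apart. Chance sets apart about 5% of groups of 4. *baf1* replicate 4 was low in *ATG8E*, at 174 normalized reads beside 299 to 317 in the other 3, and in the aquaporin sum, at 46453 beside 55728 to 56304. It was high in *CYP90D1*, at 48.4 beside 34.0 to 36.3, and in the seed albumin *SESA1*, at 97.9 beside 4.09 to 11.2. Replicate 2 was high in AT4G35720 (57.3 beside 43.9 to 46.2), *CYP21-2* (41.9 beside 24.0 to 26.9) and AT5G62280 (639 beside 461 to 484), and low in *AOC2* (308 beside 328 to 332). Replicate 1 was high in *FER3* (320.0 beside 281 to 285) and low in the photosystem and Rubisco sum (225388 beside 236236 to 236635). Replicate 3 was low in *LOX4*, at 9.71 beside 16.6 to 17.1.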

How the results depend on the processing

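The 918 called genes became 1468 with no filter, 534 at a minimum mean of 50, 371 at a fold change above 1.5, and ran from 673 to 1165 with each library left out. The 8 adjusted genes became 3 with no filter, 5 at a minimum mean of 50, 18 in the fit to all 22 libraries and 24 without the 2 *baf1* libraries high in seed transcripts, and ran from 7 to 18 with each library left out, where 18 was reached without *baf1* replicate 4. With no filter, of the 8 genes only *MRD1* passed (adjusted p = 0.0485 by limma), and the other 7 had adjusted p of 0.0792 to 0.421. The highest was that of *BAF1*, whose log2 fold change stayed at −6.08. Its log2 fold change ran from −6.71 to −5.45 with each library left out. The share of called genes with the same direction without BRZ was 62.6% with no filter, 70.6% at a minimum mean of 50 and 60.9% to 70.7% with each library left out. The median of the lower *bes1-D* set was −0.12 with no filter and −0.12 without the 2 libraries high in seed transcripts, and ran from −0.12 to −0.093 with each library left out, while that of the higher set ran from 0.047 to 0.10 and was 0.13 without the 2 libraries high in seed transcripts. The interaction had 1 gene with no filter and 0 otherwise. Size factors changed the split of calls to 449 higher and 479 lower, with a shift of −0.014 in the median log2 fold change. The cause was not tested in any of these. Of 113 other named genes, 4 turned direction when 1 WT library was left out, all with P above 0.05: without WT replicate 2, *ATG8C* (−0.052), *BEH2* (−0.073) and *CASP5* (−0.11), and without WT replicate 1, *F3H* (−0.037). With each library left out they ran to 0.27, 0.14, 0.62 and 0.47.

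Deviations from the group means of same-numbered libraries correlated across genes at 0.21, −0.075 and 0.10, and those of differently numbered libraries at −0.28 to 0.34. Deviations within a group depend on each other, so these correlations cannot decide whether same-numbered libraries were handled together. With the replicate block, 1458 genes were called and 50 at the adjusted threshold, 58.9% kept their direction without BRZ, and the median of the lower *bes1-D* set was −0.072. No WT library under BRZ has the number 4, so the block also took *baf1* replicate 4 out of the comparison. The log2 fold change of *BAF1* was −6.71 with the block and −6.71 without replicate 4. In the fit without replicate 4 and without a block, 1165 genes were called and 18 passed the adjusted threshold. The depth of 2080000 to 4710000 reads limits genes with few reads most.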
